A study of Mus musculus with 8 samples.

Results

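The genes that mark the monoamine-producing neurons of the brain were read, library by library, in whole-brain RNA from mice with a Cstf2 point mutation. The 9 members are Th, Slc6a3, Ddc, Slc18a2, Tph2, Slc6a4, Dbh, Slc6a2 and Fev, chosen by symbol from a table of 25815 genes, in which each has 1 row. The D50A group held 5 libraries from mice with the Cstf2D50A allele, and the WT group held 3 libraries from wild-type littermates. All 8 mice were 50 days old and came from a colony backcrossed for 4 generations to C57BL/6NCrl; each library was made from poly(A)-selected RNA of an aliquot of homogenised total brain. CSTF2 takes part in forming the 3′ ends of messenger RNAs, and the allele changes its RNA-binding domain; the comparison asks which brain transcripts differ with it. The labels name no batch, sex or litter for the libraries.

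Monoamine neurons are few and sit mainly in the midbrain and hindbrain, but their axons reach most of the brain. Dopamine is made from tyrosine by tyrosine hydroxylase and then aromatic amino acid decarboxylase, noradrenaline needs dopamine beta-hydroxylase in addition, and serotonin is made from tryptophan by tryptophan hydroxylase and the same decarboxylase. A vesicular transporter loads all of these amines into synaptic vesicles, and each amine has its own plasma membrane transporter for reuptake. Messenger RNA of these genes lies largely in the cell bodies, so in whole-brain RNA it reads a small volume of tissue. In bulk libraries of this kind fewer cells of a type and less RNA per cell cannot be told apart.

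Start-site regions are shown for the 3 serotonin genes, each of which was lowest in WT 1, and for Th, which was not. RefSeq promoter entries (GRCm38.p6, the assembly also called mm10) were found for 8 of the 9 members, and the 250 bases before the start site are printed 5′ to 3′ on the gene's strand. In the first 3 sequences the capitals mark GGAA on either strand (written TTCC where it lies on the other strand), the core bound by ETS-family factors, to which the Fev protein belongs. In the Th sequence the capitals mark TGACGTCA, the cyclic AMP response element.
Tph2, chr10:115185023-115185272, minus strand: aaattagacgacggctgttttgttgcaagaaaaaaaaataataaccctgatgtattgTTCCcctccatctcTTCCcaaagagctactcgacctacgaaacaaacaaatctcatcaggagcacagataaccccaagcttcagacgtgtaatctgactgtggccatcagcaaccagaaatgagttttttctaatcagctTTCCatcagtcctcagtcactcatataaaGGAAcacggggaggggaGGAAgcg
Slc6a4, chr11:76998347-76998596, plus strand: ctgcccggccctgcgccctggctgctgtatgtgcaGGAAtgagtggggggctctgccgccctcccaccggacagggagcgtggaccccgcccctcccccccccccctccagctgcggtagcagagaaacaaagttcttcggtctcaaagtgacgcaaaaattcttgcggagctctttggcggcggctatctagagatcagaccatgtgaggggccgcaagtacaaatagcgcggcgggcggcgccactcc
Fev, chr1:74885409-74885658, minus strand: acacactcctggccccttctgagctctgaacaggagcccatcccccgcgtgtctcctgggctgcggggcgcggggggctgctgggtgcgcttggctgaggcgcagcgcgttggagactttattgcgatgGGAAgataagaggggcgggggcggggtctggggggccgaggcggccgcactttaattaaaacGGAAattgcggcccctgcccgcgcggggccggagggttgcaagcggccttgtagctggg
Th, chr7:142899996-142900245, minus strand: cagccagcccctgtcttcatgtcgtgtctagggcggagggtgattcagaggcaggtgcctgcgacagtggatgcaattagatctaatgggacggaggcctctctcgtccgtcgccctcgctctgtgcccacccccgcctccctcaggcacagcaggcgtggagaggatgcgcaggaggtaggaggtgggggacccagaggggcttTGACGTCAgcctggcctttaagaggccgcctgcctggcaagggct
The Tph2 window held 5 GGAA matches, the Slc6a4 window held 1 and the Fev window held 2, while the Th window held 0. Over all 32851 windows of that length from RefSeq 93.4% held at least 1 GGAA and 18% held 5 or more, so a match is common. TGACGTCA, which reads the same on both strands, lay 45 to 38 bases before the Th start and was found in 1.55% of all windows. TATAAA, searched on both strands, lay 30 to 25 bases before the Tph2 start, next to a GGAA match without overlapping it, and was found in 12.4% of all windows. GC content was 43.6% in the Tph2 window, against 64.8% in Slc6a4, 68% in Fev and 64.4% in Th. These matches describe letters in a window and no binding was measured.

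Library depth was 13675945 to 24802272 counts. D50A 3 stood apart from the other libraries, with the lowest depth and a mitochondrially encoded share of 11.9%, against 4.08% to 5.14% for the other 7. WT 2 stood apart in 8 pituitary markers, which summed to 4 to 14.9 CPM in D50A libraries, against 20.4, 852 and 4.51 CPM in WT 1 to 3. Fold changes of the members are therefore given with and without D50A 3, and those without WT 2 lie within the ranges given for single libraries left out. Cstf2 itself had 65.8 to 129 CPM (counts scaled to a common library size, with sizes adjusted by the trimmed mean of M-values) in D50A, against 122 to 135 CPM in WT, and its difference did not pass the test (log2 fold change -0.23, SE 0.22, edgeR adjusted p = 0.84). A missense allele need not change the count, so this does not check the labels.

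The defining genes of all 3 kinds of monoamine neuron were detected, at low levels. Compared per length, as CPM per kilobase of merged exons in GENCODE M21 (mean ± SD over 8 libraries), Ddc was highest at 3.92 ± 0.395, followed by Th at 3.3 ± 1.03, Slc6a3 at 2.95 ± 0.5, Slc18a2 at 2.78 ± 0.401 and Tph2 at 2.22 ± 0.858. Slc6a4 followed at 0.806 ± 0.485, Dbh at 0.35 ± 0.305, Fev at 0.189 ± 0.151 and Slc6a2 at 0.146 ± 0.136. Of neighbours in this order, Tph2 and Slc6a4 alone lay farther apart than the larger of their SDs. The dopamine markers and the shared genes thus lay above the serotonin transporter and the noradrenaline markers on this scale.

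The members ranged from steady to variable, with no clear break between them. Over the 8 libraries the coefficient of variation of CPM was 10.1% for Ddc, 14.4% for Slc18a2, 16.9% for Slc6a3 and 31.1% for Th, where counting alone would give 5.68%, 6.15%, 7.23% and 8.1%. It was 38.7% for Tph2, 60.2% for Slc6a4, 79.8% for Fev, 87.2% for Dbh and 93.5% for Slc6a2, where counting alone would give 9.29%, 11.9%, 40.3%, 22.7% and 23.2%. Every member varied more than its counting error, and over all 8 libraries the serotonin and noradrenaline genes varied most. Within the 5 D50A libraries Tph2 did not, at 16%, against 41.5% for Th and 20.9% for Slc6a3.

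**Figure D1:**
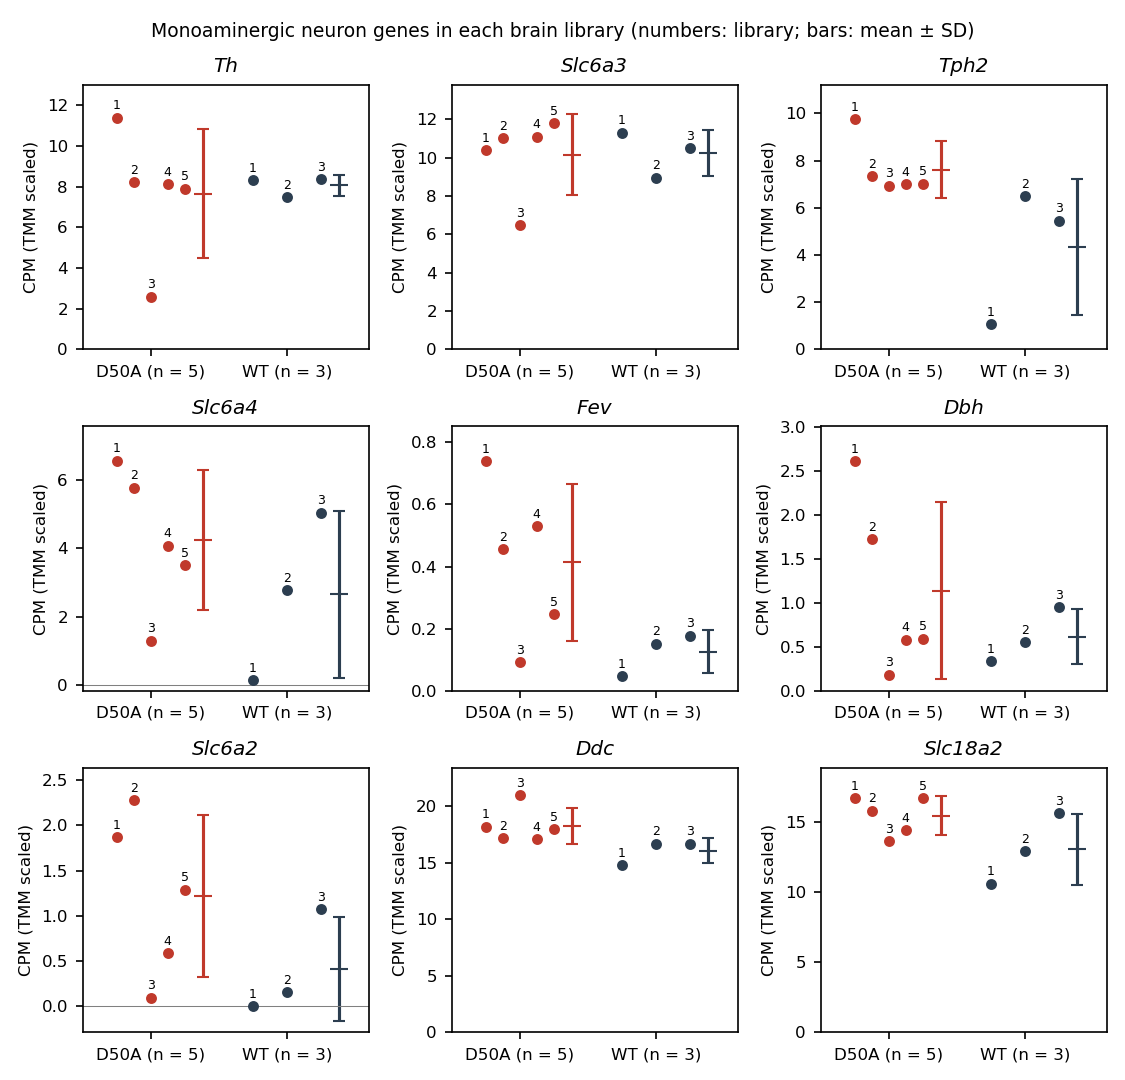
CPM of each of the 9 genes (vertical axis, from 0 or just below it) in the 5 D50A and 3 WT libraries, with the library number at each point and the mean ± SD beside each group. The Tph2 point of WT 1 lies at 1.06 CPM, below 5.46 CPM in WT 3, the next lowest, while WT 1 lies among the other libraries for Th and Slc6a3.

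Neither dopamine neuron gene passed the test, and D50A 3 was the lowest library for both. Th (ENSMUSG00000000214, chromosome 7, 142892752 to 142931128, minus strand), the rate-limiting enzyme of catecholamine synthesis, had 11.4, 8.21, 2.59, 8.11 and 7.91 CPM in D50A 1 to 5, against 8.32, 7.49 and 8.38 CPM in WT 1 to 3. D50A 1 was the highest library and D50A 3 the lowest, so the D50A range enclosed the WT range. For Th edgeR's quasi-likelihood test gave a log2 fold change of -0.07 (SE 0.37, adjusted p = 0.95), or 0.16 (SE 0.14) without D50A 3. Slc6a3 (ENSMUSG00000021609, chromosome 13, 73536747 to 73578672, plus strand), the dopamine transporter, had 10.4, 11, 6.48, 11.1 and 11.8 CPM in D50A 1 to 5, against 11.3, 8.96 and 10.5 CPM in WT 1 to 3. Again D50A 3 was the lowest library and the groups overlapped. For Slc6a3 edgeR gave -0.01 on the log2 scale (SE 0.21, adjusted p = 0.99), or 0.12 (SE 0.1) without D50A 3.

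D50A 3 was not low by the same factor for both dopamine genes. It had 2.5 Slc6a3 counts per Th count, against 0.915 to 1.49 in the other D50A libraries and 1.2 to 1.36 in WT. Th is expressed in noradrenaline neurons too, and also outside the midbrain, so its level sums over several cell groups.

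Serotonin neuron genes had larger means in D50A. No difference passed the test, and its size for Tph2 and Slc6a4 depended on single WT libraries, WT 1 among them. Tph2 (ENSMUSG00000006764, chromosome 10, 115078641 to 115185022, minus strand), the neuronal enzyme that starts serotonin synthesis, had 9.77, 7.35, 6.94, 6.99 and 7.02 CPM in D50A 1 to 5, against 1.06, 6.48 and 5.46 CPM in WT 1 to 3. All 5 D50A libraries lay above all 3 WT libraries, although D50A 3 and WT 2 differed only by 6.94 against 6.48 CPM. Such complete separation with D50A on top was found for 3.22% of the 16810 genes tested and for 2 of the 8 tested members, Tph2 and Ddc, and separation with D50A at the bottom for 4.24% of genes and 0 members. For Tph2 edgeR gave 0.82 on the log2 scale (SE 0.48, adjusted p = 0.84), with 0.35 (SE 0.22) without WT 1, 1.24 without WT 2 and 0.88 (SE 0.41) without D50A 3. An exact two-sided permutation test of its mean log2 CPM over 56 splits gave an unadjusted p = 0.0179, the smallest that 5 against 3 libraries allow.

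Slc6a4 (ENSMUSG00000020838, chromosome 11, 76998603 to 77032340, plus strand), the serotonin transporter, had 6.58, 5.78, 1.3, 4.08 and 3.51 CPM in D50A 1 to 5, against 0.144, 2.78 and 5.05 CPM in WT 1 to 3. WT 1 was the lowest library and D50A 3 the next, and the groups overlapped. The value of WT 1 came from 3 counts, with a 95% exact Poisson interval of 0.0298 to 0.422 CPM, which lies below the interval of D50A 3, 0.708 to 2.17 CPM. For Slc6a4 edgeR gave 0.71 on the log2 scale (SE 0.81, adjusted p = 0.84). That value was 0.14 (SE 0.56) without WT 1, 0.75 (SE 1.02) without WT 2, 1.55 (SE 0.95) without WT 3 and 0.97 (SE 0.59) without D50A 3.

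Fev (ENSMUSG00000055197, chromosome 1, 74881509 to 74885419, minus strand), the transcription factor also called Pet1 that sets serotonin neuron identity, had 19, 9, 1, 10 and 5 counts in D50A 1 to 5, against 1, 3 and 3 counts in WT 1 to 3. As CPM these were 0.74, 0.456, 0.0925, 0.53 and 0.247 in D50A, against 0.0481, 0.152 and 0.178 in WT, so 4 of 5 D50A libraries lay above all WT libraries and D50A 3 did not. Fev did not pass the filter on low counts and was the only member left untested. With no filter edgeR gave 1.78 on the log2 scale (SE 0.68, unadjusted p = 0.0259, adjusted p = 0.85). DESeq2 gave 1.82 (SE 0.8, unadjusted p = 0.0235, adjusted p = 0.9). The share of all genes at an unadjusted p under 0.05 was not counted for these fits. Fev passed the filter when a WT library was left out, and edgeR then gave 1.38 (SE 0.73) without WT 1, 1.96 (SE 0.86) without WT 2 and 2.08 (SE 0.84) without WT 3; it did not pass without D50A 3.

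WT 1 was low in serotonin genes while its dopamine genes were at the level of the other libraries. Tph2 counts per Th count were 0.857, 0.895, 2.68, 0.863 and 0.888 in D50A 1 to 5, against 0.127, 0.865 and 0.652 in WT 1 to 3. The other 6 libraries thus held between 0.652 and 0.895, D50A 3, the lowest for Th, lay above them, and WT 1, the lowest for Tph2, lay below them. Slc6a4 counts per Tph2 count were 0.673, 0.786, 0.187, 0.583 and 0.5 in D50A 1 to 5, against 0.136, 0.43 and 0.924 in WT 1 to 3. This ratio was not fixed and was lowest in WT 1 and D50A 3.

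**Figure D2:**
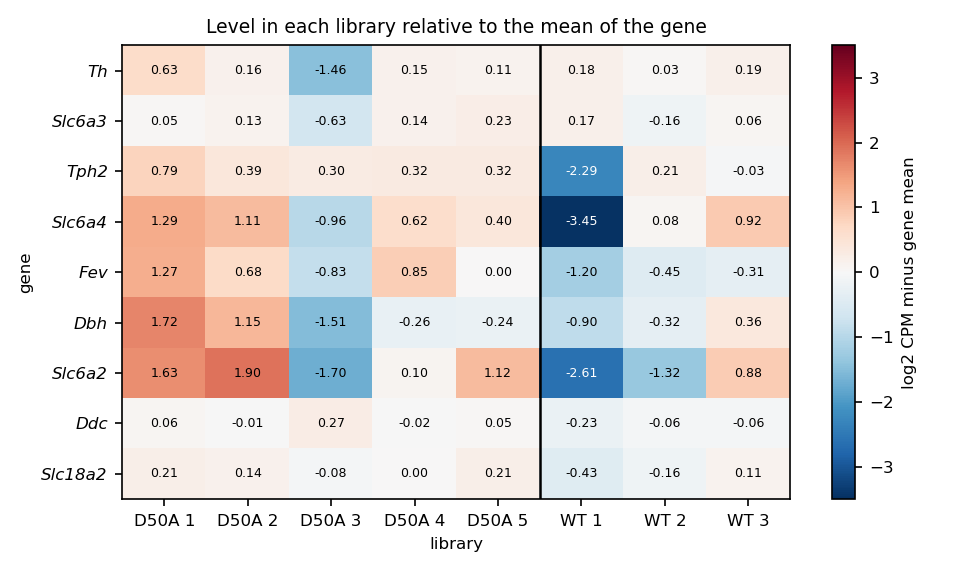
Log2 CPM of each gene (rows) in each library (columns) minus the mean of that gene over all 8 libraries, with D50A libraries left of the line and WT libraries right of it. WT 1 is at -2.29 for Tph2 and -3.45 for Slc6a4 but at 0.18 for Th, and D50A 3 is at -1.46 for Th but at 0.3 for Tph2.

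Noradrenaline neuron genes were few in counts and spread over a wide range in both groups. Dbh (ENSMUSG00000000889, chromosome 2, 27165233 to 27183200, plus strand), which converts dopamine to noradrenaline, had 67, 34, 2, 11 and 12 counts in D50A 1 to 5, against 7, 11 and 16 counts in WT 1 to 3. These were 2.61, 1.72, 0.185, 0.583 and 0.593 CPM in D50A, against 0.337, 0.557 and 0.95 CPM in WT, so D50A 1 and D50A 2 lay above the WT range and D50A 3 below it. For Dbh edgeR gave 0.98 on the log2 scale (SE 0.75, adjusted p = 0.84). That value was 0.43 without D50A 1, 0.66 without WT 1 and 1.25 without D50A 3.

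Slc6a2 (ENSMUSG00000055368, chromosome 8, 92960079 to 93001667, plus strand), the noradrenaline transporter, had 48, 45, 1, 11 and 26 counts in D50A 1 to 5, against 0, 3 and 18 counts in WT 1 to 3. These were 1.87, 2.28, 0.0925, 0.583 and 1.29 CPM in D50A, against 0, 0.152 and 1.07 CPM in WT, where a count of 0 in WT 1, taken to allow up to 3 counts, allows up to 0.144 CPM. D50A 1, 2 and 5 lay above every WT library, and D50A 3 was near the lowest WT libraries. For Slc6a2 edgeR gave 1.71 on the log2 scale (SE 1.05, adjusted p = 0.84), and this ran from 1.08 without WT 1 to 3.98 without WT 3, where the 2 WT libraries left hold 0 and 3 counts. Without D50A 3 it was 2.02 (SE 0.75, unadjusted p = 0.0226, edgeR adjusted p = 0.42). Poisson intervals and limits cover counting error only.

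D50A 1 and D50A 2 carried the highest levels of both noradrenaline genes. Dbh counts per Th count were 0.229 and 0.21 there, while D50A 3 to 5 had 0.0714 to 0.075 and the WT libraries 0.0405 to 0.113. Dbh and Slc6a2 are made by the same small cell groups, chiefly the locus coeruleus in the pons, and both were low in WT 1 and D50A 3.

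The genes shared by all monoamine neurons were the steadiest members. Ddc (ENSMUSG00000020182, chromosome 11, 11814101 to 11898144, minus strand), the decarboxylase that makes dopamine and serotonin, had 18.2, 17.2, 21, 17.1 and 18 CPM in D50A 1 to 5, against 14.8, 16.7 and 16.7 CPM in WT 1 to 3. All D50A libraries lay above all WT libraries by a small margin, 17.1 against 16.7 CPM at the nearest. For Ddc edgeR gave 0.19 on the log2 scale (SE 0.13, adjusted p = 0.84), and the exact two-sided permutation test gave an unadjusted p = 0.0357. Without D50A 3 the edgeR value of Ddc was 0.15 (SE 0.08). Slc18a2 (ENSMUSG00000025094, chromosome 19, 59260896 to 59296012, plus strand), the vesicular monoamine transporter, had 16.7, 15.8, 13.6, 14.4 and 16.7 CPM in D50A 1 to 5, against 10.6, 12.9 and 15.6 CPM in WT 1 to 3. WT 1 was again the lowest library, and the groups overlapped. For Slc18a2 edgeR gave 0.25 on the log2 scale (SE 0.16, adjusted p = 0.84), with 0.12 (SE 0.18) without WT 1 and 0.3 (SE 0.12, unadjusted p = 0.0351, adjusted p = 0.47) without D50A 3. A stretch of 111 exonic bases of Slc18a2 overlaps Gm29261 on the other strand, and how the counting treated strand was not stated.

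No member was called different between the genotypes. Of 9 members 8 were tested, and edgeR called 0 higher and 0 lower at an adjusted p of 0.05, where over all 16810 genes tested it called 0% in each direction. At an unadjusted p under 0.05 edgeR had 0 of the 8 members, against 1.64% of all genes in the higher and 0.863% in the lower direction. Without D50A 3 it had 2 of the 8, Slc6a2 and Slc18a2, both higher, against 5.07% of all genes higher and 4.33% lower, and without D50A 1 and D50A 3 it had these and Tph2, against 11.1% of all genes higher and 11.2% lower. In that last fit genotype cannot be told apart from the cerebellar marker content given below. At an unadjusted p under 0.05 limma-voom with sample quality weights had 4 of the 8, all higher. These were Slc6a2 (log2 fold change 3.06, adjusted p = 0.075), Slc6a4 (1.84, adjusted p = 0.17), Tph2 (1.11, adjusted p = 0.16) and Slc18a2 (0.3, adjusted p = 0.16). The other tested members had unadjusted limma-voom p of 0.109 to 0.701. The share of all genes at an unadjusted limma-voom p under 0.05 was not counted, so the 4 of 8 cannot be judged against it. After adjustment DESeq2 and limma-voom each called 0 members too, against 0.185% and 3.08% of all genes in either direction. The log2 fold change was above 0 for 6 of the 8 (8 of 8 with limma-voom), with a median of 0.48, against 48.6% of all genes and a median of -0.01; over the same 8 members the median was 0.13 without WT 1, 0.7 without WT 3 and 0.59 without D50A 3. The exact permutation test, which takes each gene alone and unadjusted, was under 0.05 for Tph2 and Ddc; the other 7 members had p of 0.107 to 0.893.

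**Figure D3:**
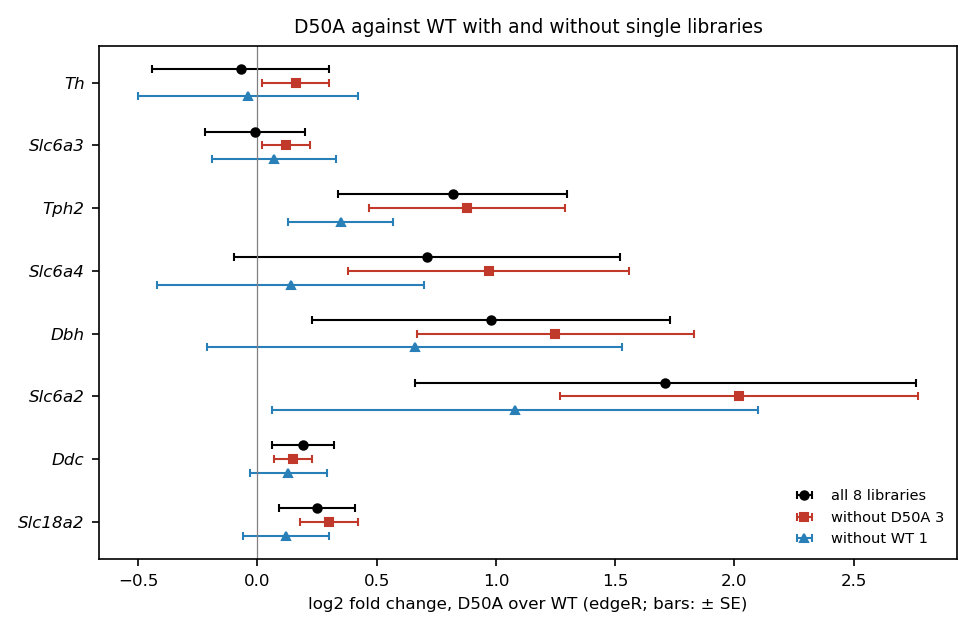
Log2 fold change of D50A over WT (horizontal axis, edgeR, bars ± SE) for the 8 tested genes in all 8 libraries, without D50A 3 and without WT 1. Leaving out WT 1 places Tph2 at 0.35 and Slc6a4 at 0.14, against 0.82 and 0.71 in all libraries.

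Genes that supply the hydroxylases with their cofactor had a median log2 fold change above 0, and D50A 3 stood far above the other libraries in their sum. That sum was 1190 CPM there, against 291 to 329 CPM in the other D50A libraries and 275 to 315 CPM in WT, and Qdpr made up most of it. Tetrahydrobiopterin is needed by Th and Tph2 alike, and 8 genes of its synthesis and recycling were tested. None passed in either direction by edgeR, DESeq2 or limma-voom, 8 of 8 had a log2 fold change above 0, and their median was 0.51, or 0.18 without D50A 3. Without D50A 3, and also with limma-voom, 6 of 8 lay above 0, where 48.6% of all genes did in the main fit. Qdpr, which recycles the cofactor, had 973 CPM in D50A 3, against 215 to 252 CPM in the other D50A libraries and 201 to 237 CPM in WT. Pcbd1, another recycling enzyme, averaged 10.1 ± 3.29 CPM in D50A and 6.71 ± 0.721 CPM in WT (SD, n = 5 and 3), with all D50A libraries above all WT libraries and an edgeR adjusted p of 0.84. Such separation was found for 2 of the 8 cofactor genes and for 3.22% of all genes tested. Gchfr, the feedback regulator of the first enzyme of synthesis, averaged 1.54 ± 1.45 CPM in D50A and 0.485 ± 0.295 CPM in WT. D50A 3 held the highest level of Qdpr, Pcbd1 and Gchfr, but not of Gch1. Gch1 had 1.85 CPM in D50A 3, against 1.64 to 2.92 CPM in the other D50A libraries and 1.4 to 2.49 CPM in WT.

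For genes of monoamine degradation D50A 3 again stood apart in their sum, at 1570 CPM, against 584 to 633 CPM in the other D50A libraries and 549 to 603 CPM in WT. Of 9 tested, 0 passed by edgeR, DESeq2 or limma-voom, all 9 lay above 0, and the median was 0.27, or 0.06 without D50A 3. Without D50A 3, and also with limma-voom, only 5 of 9 lay above 0, where 48.6% of all genes did in the main fit. The monoamine oxidase genes Maoa and Maob had 94.3 and 40.4 CPM in D50A 3, against 35.4 to 48.5 and 24 to 27.3 CPM in the other D50A libraries and 38.7 to 49.6 and 26 to 27.7 CPM in WT. Aldh1a1, an aldehyde dehydrogenase that is also made by a subset of dopamine neurons, averaged 122 ± 82.4 CPM in D50A and 73.4 ± 7.28 CPM in WT (log2 fold change 0.73, SE 0.45, edgeR adjusted p = 0.84). In the fit without D50A 1 and D50A 3 Aldh1a1 was higher in D50A by 0.33 on the log2 scale (SE 0.08, edgeR adjusted p = 0.021). That fit called 558 genes higher in all. Akr1a1 and Sult1a1 averaged 411 ± 280 and 9 ± 5.74 CPM in D50A, against 264 ± 17.3 and 5.9 ± 0.515 CPM in WT.

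Receptors for the amines, which are expressed mostly in the target areas rather than in the monoamine neurons, had median log2 fold changes below 0, with few calls. Of 12 serotonin receptor genes tested 10 had a log2 fold change below 0, with a median of -0.24, as had 7 of 9 adrenoceptor genes with a median of -0.22 and 2 of 4 dopamine receptor genes with a median of -0.16; of all genes 51.4% lay below 0. edgeR and DESeq2 called none of them. limma-voom called Htr6, Adra1b and Drd2 lower, with 202 of all 16810 genes called lower. The edgeR fit without D50A 1 and D50A 3 called Htr6 and Adra1b lower, with 507 of all 16591 genes called lower. In that fit genotype cannot be told apart from the cerebellar marker content given below. Htr6, a serotonin receptor of striatal and cortical neurons, had 7.67, 6.59, 3.33, 5.19 and 5.59 CPM in D50A 1 to 5, against 8.56, 9.01 and 7.6 CPM in WT 1 to 3. D50A 1 overlapped the WT range and D50A 2 to 5 lay below it. Adra1b, an alpha-1 adrenoceptor, averaged 17.8 ± 5.31 CPM in D50A and 23.7 ± 0.693 CPM in WT, and Drd2, the D2 dopamine receptor that also serves as an autoreceptor on dopamine neurons, averaged 16.3 ± 3.68 CPM in D50A and 21.1 ± 0.855 CPM in WT. Further receptor genes with the smallest p of their lists were Htr3a, at 4.18 ± 1.05 CPM in D50A and 5.95 ± 0.825 CPM in WT, Htr4, at 3.79 ± 0.487 CPM in D50A and 4.97 ± 1.16 CPM in WT, and Drd5, at 1.69 ± 0.256 CPM in D50A and 2.28 ± 0.334 CPM in WT. Drd3 averaged 0.625 ± 0.256 CPM in D50A and 0.586 ± 0.0976 CPM in WT, and Adra2a averaged 16.8 ± 5.63 CPM in D50A and 20.7 ± 0.436 CPM in WT. Of these 5 genes Htr3a alone did not overlap between the groups. Drd2 did not overlap either, with 9.99 to 19.5 CPM for D50A, against 20.3 to 22 CPM for WT. Over the whole lists all D50A libraries lay below all WT libraries for 3 of 12 serotonin receptor, 1 of 4 dopamine receptor and 0 of 9 adrenoceptor genes. The share over all genes tested was 4.24%. Of the adrenoceptor genes Adra1a and Adra1d were lowest in D50A 3, at 2.87 and 3.33 CPM, against 11.8 to 14.8 and 13.3 to 18.7 CPM in the other D50A libraries and 14.2 to 16.7 and 16.5 to 19.4 CPM in WT. Without D50A 3 the medians were -0.22 for serotonin receptors, -0.07 for adrenoceptors and -0.22 for dopamine receptors.

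**Figure D4:**
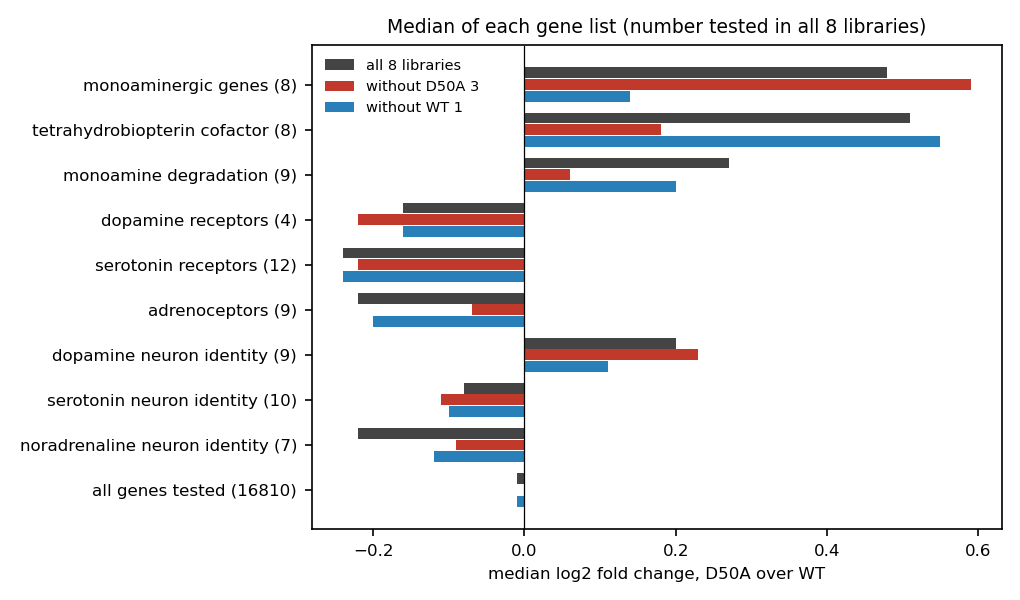
Median log2 fold change of D50A over WT (horizontal axis) for the tested genes of each list, in all 8 libraries, without D50A 3 and without WT 1, with the number tested in parentheses. The cofactor list moves to 0.18 without D50A 3, and the monoaminergic genes move to 0.14 without WT 1, a fit in which Fev is tested too.

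Other identity genes of the 3 neuron types gave medians closer to 0 than the serotonin and noradrenaline members did. For serotonin neurons the 10 genes tested had a median of -0.08 and 0 calls by edgeR, DESeq2 or limma-voom; Lmx1b, a transcription factor they share with midbrain dopamine neurons, had 1.36, 1.12, 0.0925, 1.22 and 1.58 CPM in D50A 1 to 5, against 0.625, 0.607 and 0.95 CPM in WT 1 to 3. D50A 3 was lowest for Lmx1b and WT 1 lay with the other WT libraries. Htr1a and Crhr2 from the same list averaged 19.2 ± 3.84 and 1.97 ± 0.833 CPM in D50A, against 23 ± 3.38 and 2.81 ± 0.65 CPM in WT. Most genes of that list are also expressed by many other neurons.

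For dopamine neurons 9 of 12 identity genes were tested, with a median of 0.2 and 0 calls by edgeR or DESeq2. Nr4a2, a transcription factor of dopamine neurons that cortical neurons express too, was at 11.8 CPM in D50A 3, against 30.7 to 38.7 CPM in the other D50A libraries and 35 to 35.9 CPM in WT. Pitx3, which is largely restricted to midbrain dopamine neurons, had 0 to 0.304 CPM in D50A libraries, against 0.119 to 0.253 CPM in WT libraries, too few to test. Ret, a receptor for glial-derived growth factor ligands, was called higher by limma-voom (log2 fold change 0.37, SE 0.07, adjusted p = 0.012) and by edgeR without D50A 1 and D50A 3 (0.39, SE 0.08, adjusted p = 0.0058). That edgeR fit also called Ntsr1 lower (-0.46, SE 0.12, adjusted p = 0.038). Over all genes it called 558 higher and 507 lower, and limma-voom called 315 higher and 202 lower. Sncg and Lmx1a averaged 11.2 ± 7.46 and 0.996 ± 0.352 CPM in D50A, against 6.45 ± 0.709 and 0.661 ± 0.258 CPM in WT, with edgeR adjusted p of 0.84 for each.

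For noradrenaline neurons 7 of the 10 identity genes were tested, with a median of -0.22 and 0 calls by edgeR or DESeq2. Phox2a, a transcription factor that specifies these neurons, had at most 0.0779 CPM in D50A, against at most 0.178 CPM in WT, and was not tested. Tfap2b, a transcription factor also expressed in the cerebellum, had 4.28, 6.08, 2.96, 6.89 and 7.91 CPM in D50A 1 to 5, against 2.89, 3.95 and 2.67 CPM in WT 1 to 3. It was called higher by limma-voom (adjusted p = 0.0055) and by edgeR without D50A 1 and D50A 3 (log2 fold change 1.14, SE 0.17, adjusted p = 0.00053). Ecel1 was called lower by the same fits, at -0.44 on the log2 scale in each. The edgeR fit without D50A 1 and D50A 3 called 558 genes higher and 507 lower in all, and limma-voom called 315 higher and 202 lower. Calca, a neuropeptide gene, averaged 1.97 ± 1.44 CPM in D50A and 1.11 ± 0.343 CPM in WT.

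Markers of brain regions differed between the libraries as well, and their part in the results for the members was not tested. The summed level of 12 cerebellar markers was 256 CPM for D50A 1, whereas D50A 2 to 5 had 1030 to 1430 CPM and the WT libraries 264 to 280 CPM. D50A 1, which had the highest Tph2, Slc6a4, Fev and Dbh, was thus at the WT level of cerebellar markers. In the fit without D50A 1 and D50A 3 every D50A library left had 1030 to 1430 CPM of these markers. Genotype and this content cannot be told apart in that fit. The summed level of 14 hindbrain and spinal Hox-cluster transcripts was 1.43 to 2.84 CPM for D50A libraries, against 0.238 to 0.658 for WT libraries, with WT 1 at 0.481 and WT 3 at 0.238 CPM. Of those 14, 3 to 7 were at 0 counts in D50A libraries and 8 to 13 in WT libraries. Hotairm1, the only one with enough counts to test, had 0.506 to 0.833 CPM in D50A libraries, against 0.152 to 0.241 CPM in WT libraries (log2 fold change 1.7, SE 0.33, edgeR adjusted p = 0.84, limma-voom adjusted p = 0.01). WT 3, whose Hox sum was the lowest, had more Slc6a4, Fev, Dbh and Slc6a2 than WT 1 and WT 2, but less Tph2 than WT 2. D50A 2, whose Hox sum was the highest at 2.84 CPM, had the highest Slc6a2. It came next to D50A 1 in Tph2, Slc6a4 and Dbh, but not in Fev. Whether the levels of the members follow this content was not tested.

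For striatal, oligodendrocyte and microglia markers D50A 3 was the library that stood out. The hypothalamic sum was highest in WT 2, where Pomc was high. The 13 hypothalamic markers summed to 133 to 181 CPM in D50A, while WT 1 to 3 had 184, 316 and 154 CPM. Pomc, which is on the pituitary list too, gave 136 CPM of the WT 2 sum. It had 2.97 to 12.8 CPM in D50A, and 6.25 and 3.27 CPM in WT 1 and WT 3. The 12 striatal markers summed to 1690 CPM in D50A 3 and 1120 to 1200 CPM in the other D50A libraries, against 1270 to 1320 CPM in WT. The 8 pan-neuronal genes summed to 6060 to 6490 CPM in D50A libraries, against 6440 to 6700 CPM in WT libraries. The 8 mature oligodendrocyte genes summed to 20800 CPM in D50A 3 and 10200 to 11400 CPM in the other D50A libraries, against 9370 to 10200 CPM in WT. The 8 microglia genes summed to 500 CPM in D50A 3 and 219 to 267 CPM in the other D50A libraries, against 247 to 255 CPM in WT. For WT 1 the pan-neuronal sum was 6700 CPM, the oligodendrocyte sum 9590 CPM and the microglia sum 247 CPM.

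Among 15218 tested genes with a mean log2 CPM above 0, members left out, the gene closest in pattern to the serotonin markers was Rln3, the relaxin-3 gene, made mainly by the nucleus incertus of the pontine tegmentum. Patterns were compared as the root-mean-square difference of centred log2 CPM over the 8 libraries, which share their depth and any tissue differences. The mean pattern of Tph2, Slc6a4 and Fev had a root-mean-square size of 0.99, and Rln3 differed from it by 0.58, followed by C3 at 0.59, 4930481A15Rik at 0.67, Loxhd1 at 0.68 and Abcc12 at 0.69. Rln3 had 4.01, 1.98, 1.11, 1.8 and 1.19 CPM in D50A 1 to 5, against 0.529, 0.607 and 1.54 CPM in WT 1 to 3. Its highest library was D50A 1 and its lowest was WT 1, as for Tph2 and Slc6a4, a match that the choice by pattern favours. WT 2 was nearly as low as WT 1 for Rln3, but not for Tph2 or Slc6a4. Rln3 was also nearest to the mean pattern of Dbh and Slc6a2, with a difference of 0.71 where the pattern itself had a size of 1.23, followed by Sh2d4b, Loxhd1, 4930562C15Rik and C3 at 0.79 to 0.82. The log2 fold change of Rln3 was 1.22 (edgeR adjusted p = 0.84).

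For the dopamine pattern the nearest genes lay close to it. Pabpn1, Ubp1, Cdh22, Rprd1b and Dolpp1 differed from the mean pattern of Th and Slc6a3 by 0.04 to 0.06, where that pattern had a size of 0.41. Its main feature was the low value of D50A 3, for example 20.1 CPM of Pabpn1 there, against 43.9 to 50.8 CPM in the other D50A libraries and 40.3 to 44.9 CPM in WT. Pabpn1 encodes a nuclear poly(A)-binding protein and is expressed in all cells.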

How the data were processed

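Poly(A)-selected brain RNA of 8 mice was counted per gene, and the authors deposited raw read counts in 1 table, with no normalization. CASAVA 1.8, STAR 2.5, HTSeq 0.6.1 and DESeq2 2 with build mm10 are named, without order, per the submitters' processing notes; the annotation and the treatment of strand were not stated. Groups came from the genotype labels, and library numbers follow accession order and pair no animals. The p-values reflect the spread among these libraries, which may be partly technical.

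Counts were tested with edgeR 4.0.16 (R 4.3.3; quasi-likelihood test, filterByExpr, TMM scaling, Benjamini-Hochberg over 16810 genes, threshold 0.05) in all 8 libraries with no covariate. Levels are CPM on TMM-scaled sizes, and log2 CPM has a prior count of 2. Alternatives were DESeq2 1.42.0, limma-voom (limma 3.58.1), other scalings and filters, a robust fit, removal of mitochondrially encoded and hemoglobin genes, libraries left out, and an exact permutation test per member. Scripts were tested on simulated counts. Exon lengths came from GENCODE M21 (25484 gene IDs matched) and promoters from RefSeq. The members and lists were chosen with earlier results of these data known. The text names all members, the 3 genes of smallest p in each pathway list and the 5 genes nearest to each pattern; other genes were named after their values were seen, and some genes of the lists are not reported here. Lists are described without a set test.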

Additional observations from a re-analysis of the deposited data

Results flagged for a closer look

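In 3 cases 1 of the 5 D50A libraries lay far from the others, with a gap to its nearest neighbour over 0.71 of the whole range of the group (Dixon's critical value); chance gives this in about 5% of groups. Over all 16810 genes tested 40.1% met the same rule, 39% with D50A 3 as the library apart and 0.767% with D50A 1. Tph2 in D50A 1 was at 9.77 CPM, with the nearest D50A library at 7.35 CPM and a gap of 0.854 of the range, so the other 4 D50A libraries lay close together. Slc6a3 in D50A 3 was at 6.48 CPM, with the nearest D50A library at 10.4 CPM and a gap of 0.741 of the range. Ddc in D50A 3 was at 21 CPM, with the nearest D50A library at 18.2 CPM and a gap of 0.724 of the range. The values of D50A 3 are thus of a kind found in many genes; its mitochondrially encoded share was 11.9%, whose part in this was not tested. The WT group, with 3 libraries, was not checked in this way.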

How the results depend on the processing

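The count of members called after adjustment over all genes was 0 under all alternatives run. Over all genes, where the main count was 0 in each direction, DESeq2 called 31 higher and 6 lower, limma-voom called 315 higher and 202 lower, and edgeR without D50A 1 and D50A 3 called 558 higher and 507 lower; with single libraries left out edgeR called 0 to 26 higher, the 26 without D50A 1, and 0 lower. The median of the tested members was 0.14 to 1.02 with single libraries left out, or 0.13 to 0.7 over the same 8 genes, since Fev enters when a WT library is left out. Of 175 alternative values for single members 162 kept their direction and side of the threshold, 11 changed sign (values rounded to 2 decimals, where Slc6a3 was 0 with no filter or without D50A 1) and 2, Tph2 and Ddc, were under 0.05 in the unadjusted exact permutation test. The sign changes were in the dopamine genes. Slc6a3 (main -0.01) was 0.01 with DESeq2, 0.15 with limma-voom, 0.02 with DESeq2 size factors, 0.03 with upper-quartile scaling and 0.16 without D50A 1 and D50A 3, and Th (main -0.07) was 0.04 with limma-voom and 0.02 without D50A 1 and D50A 3. With single libraries left out Slc6a3 ran from -0.1 to 0.12 and Th from -0.24 to 0.16; the cause was not tested. Over the same leave-outs Tph2 ran from 0.35 to 1.24, Slc6a4 from 0.14 to 1.55, Dbh from 0.43 to 1.4, Slc6a2 from 1.08 to 3.98, Ddc from 0.13 to 0.21 and Slc18a2 from 0.12 to 0.39, with adjusted p of 0.42 to 0.97. Dbh did not pass the filter of 1 CPM in 3 libraries. No paired analysis was possible because the labels give the groups no shared replicate numbers. Counts of 1 to 19 for Fev and 0 to 48 for Slc6a2 limit what can be said of either.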

Other observations

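Genes of neurons that use acetylcholine or histamine gave no calls. Chat, the acetylcholine-synthesising enzyme, had 3.97, 3.9, 3.79, 3.02 and 3.66 CPM in D50A 1 to 5, against 3.7, 3.7 and 4.57 CPM in WT 1 to 3, and its vesicular transporter gene Slc18a3 averaged 1.36 ± 0.656 CPM in D50A and 1.7 ± 0.369 CPM in WT (SD, n = 5 and 3). WT 1 was not low for Chat. Slc5a7, the choline transporter gene of cholinergic neurons, averaged 8.92 ± 1.88 CPM in D50A and 7.98 ± 1.22 CPM in WT. Hdc, which makes histamine, also a monoamine, in the hypothalamus and in mast cells, had 2.92, 3.19, 5.83, 2.81 and 2.37 CPM in D50A 1 to 5, against 4.04, 3.14 and 1.78 CPM in WT 1 to 3. WT 1 was the highest WT library for Hdc. Chat, Slc18a3, Slc5a7 and Hdc did not pass by edgeR, DESeq2 or limma-voom.

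Pnmt and Tph1, which mark adrenaline cells and peripheral or pineal serotonin cells, were near the limit of detection. Pnmt, which makes adrenaline, had 0.117 to 0.833 CPM in D50A libraries, against 0.202 to 0.385 CPM in WT libraries, and Tph1, the tryptophan hydroxylase of the pineal gland and gut, had 0.0989 to 0.555 CPM in D50A libraries, against 0.0962 to 0.356 CPM in WT libraries. Prph, a peripheral and brainstem neurofilament-type gene, did not overlap between the groups, at 3.7 ± 1.44 CPM in D50A and 2.18 ± 0.296 CPM in WT (log2 fold change 0.74, SE 0.31, edgeR adjusted p = 0.84). Separation with D50A on top was found for 1 of the 5 tested genes of its list and for 3.22% of all genes tested. Npy and Chga averaged 31.9 ± 3.91 and 113 ± 28.3 CPM in D50A, against 38.5 ± 0.393 and 138 ± 5.92 CPM in WT. Both were called lower by edgeR without D50A 1 and D50A 3, with 507 of all 16591 genes called lower. In that fit genotype cannot be told apart from cerebellar marker content. limma-voom in all libraries called Npy lower (-0.34, SE 0.07, adjusted p = 0.025) but not Chga, with 202 of all genes called lower.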
